A study of Mus musculus with 9 samples.

Results

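The canonical Wnt pathway genes described here are beta-catenin (Ctnnb1), its DNA-binding partners (Tcf7, Tcf7l1, Tcf7l2 and Lef1), the proteins that hold it down (Axin1, Apc and Gsk3b) and the feedback genes Axin2 and Nkd1. Members were chosen by name, with earlier results of these data known. Each was measured by all probe sets of the deposited array table that list it as their single gene. Of the 10 genes, 9 were measured, by 29 of 45101 probe sets. Ctnnb1 had 3 probe sets, Tcf7l1, Lef1, Axin1 and Axin2 had 2 each, Tcf7l2, Apc and Nkd1 had 4 each, and Gsk3b had 6. Tcf7 was not analysed here, since no probe set lists that symbol in the annotation used.

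The arrays profiled bone marrow cells of mouse leukemias, 3 arrays in each of 3 groups, on a strain background labelled C57/BL6 X 129. All leukemias of the first pair of groups carried the MLL-AF9 fusion and both alleles of Af10 floxed. In the Af10 deleted group they had received the tdTomato vector MIT carrying Cre recombinase, and in the Af10 floxed group the same vector without Cre. Both were secondary leukemias, grown in recipient mice from sorted transduced cells and sorted again for tdTomato before RNA was made. The third group held primary leukemias made by transducing Hoxa9 and Meis1, which were not sorted. Loss of Af10 and expression of Cre cannot be told apart in this design. Against the Hoxa9-Meis1 group, the oncogene cannot be told apart from the transplant generation, the vector or the sort. The labels do not say that arrays of a group came from separate mice, so the p-values measure the spread between these arrays, which may be technical.

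In the canonical Wnt pathway, a complex built on Axin and Apc holds beta-catenin so that Gsk3b and casein kinase can phosphorylate it and mark it for destruction. When a Wnt ligand binds a Frizzled receptor and an Lrp co-receptor, that complex is disabled, and beta-catenin enters the nucleus and binds TCF or LEF proteins on DNA. Axin2 and Nkd1 are induced by the pathway and damp it in turn. In the blood system beta-catenin is known for its part in self-renewal, including that of leukemia stem cells in MLL-rearranged acute myeloid leukemia. Beta-catenin is governed largely through protein stability, which arrays of RNA do not measure.

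Levels are given as log2(intensity + 1), differences are on that scale, and a probe set was called where limma's adjusted p over all 45037 non-control probe sets was under 0.05. Of these 45037, 9740 had an unadjusted limma p under 0.05 in deleted against floxed leukemias. Against Hoxa9-Meis1 leukemias it was 10792 for the floxed and 12698 for the deleted group. Each mean is given with its SD over 3 arrays. Mllt10, which encodes Af10, was lower in the deleted group on all 4 of its probe sets, by 0.76 to 1.05 (limma, adjusted p 0.00104 to 0.0327). The call of 1 of them, 1420869_at, held without floxed replicate 5 and was lost without each of the other 5 arrays (limma, adjusted p up to 0.0974). The other Mllt10 probe sets were not tested with arrays left out. Array medians lay between 146 and 156 on the linear scale, and correlations over all probe sets were 0.979 to 0.99 within groups and 0.941 to 0.972 between groups. The gap between the 3' and 5' Gapdh control probe sets, a gauge of RNA integrity, was 1.03 on floxed replicate 5 and 0.44 to 0.81 on the other arrays. As a gauge of background, 9 Y-linked probe sets read 2.97 to 4.71 on all arrays. Background may differ between probe sets and be higher for some. The erythroid marker Hba-a1 and the B cell marker Blk had group means of 6.26 to 6.29 and 6.32 to 6.37. A level above 4.71 therefore need not mean that a gene was expressed. Of the genes that mark myeloid leukemia cells of bone marrow, 10 of 10 were measured, and Mpo, a primary granule enzyme, had group means of 13.85, 13.87 and 14.19 in the deleted, floxed and Hoxa9-Meis1 groups.

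Between Af10 deleted and floxed leukemias, beta-catenin transcripts were higher and Tcf7l2 transcripts were lower after deletion. Of the 29 probe sets, 2 rose, both of Ctnnb1, and 5 fell, which were all 4 of Tcf7l2 and 1 of Apc. That is 24.1% called, against 6.19% of all probe sets, of which 2.41% rose and 3.77% fell. Probe sets of the same gene are not independent, and the members were chosen with earlier results of these data known. The share is therefore a description and not a test. The count rests on all 6 arrays: it was 2 to 4 of 29 when any 1 of them was left out, 1 with deleted replicate 6 and floxed replicate 5 both left out, 4 with the deleted and floxed arrays alone in the fit, and 1 of 9 in a fit with 1 probe set per gene. The 29 had a median difference of -0.10, against 0.04 for all probe sets. The deleted and floxed values did not overlap for 14 of the 29, against 24.8% of all probe sets. Between floxed and Hoxa9-Meis1 leukemias, 3 probe sets of Tcf7l2 were higher in the floxed group and 1 of Gsk3b was lower, which is 13.8% called against 9.02% of all probe sets (4.95% higher, 4.07% lower). That count of 4 was 2 without floxed replicate 4 or 6 or Hoxa9-Meis1 replicate 1, 7 with array weights and 0 of 9 in the fit with 1 probe set per gene. In that comparison the values did not overlap for 14 of the 29, against 28.1% of all, and the median difference was 0.13 against -0.03. Between deleted and Hoxa9-Meis1 leukemias, all 3 probe sets of Ctnnb1 and 1 of Axin2 were higher in the deleted group and 2 of Gsk3b were lower, which is 20.7% called against 15.0% of all probe sets (7.21% higher, 7.84% lower), and the fit with 1 probe set per gene called 1 of 9. Values did not overlap for 8 of the 29 there, against 34.2% of all, and the median difference was -0.01 against 0.02. Each pair of these comparisons shares a group, so they are not independent of each other.

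**Figure D1:**
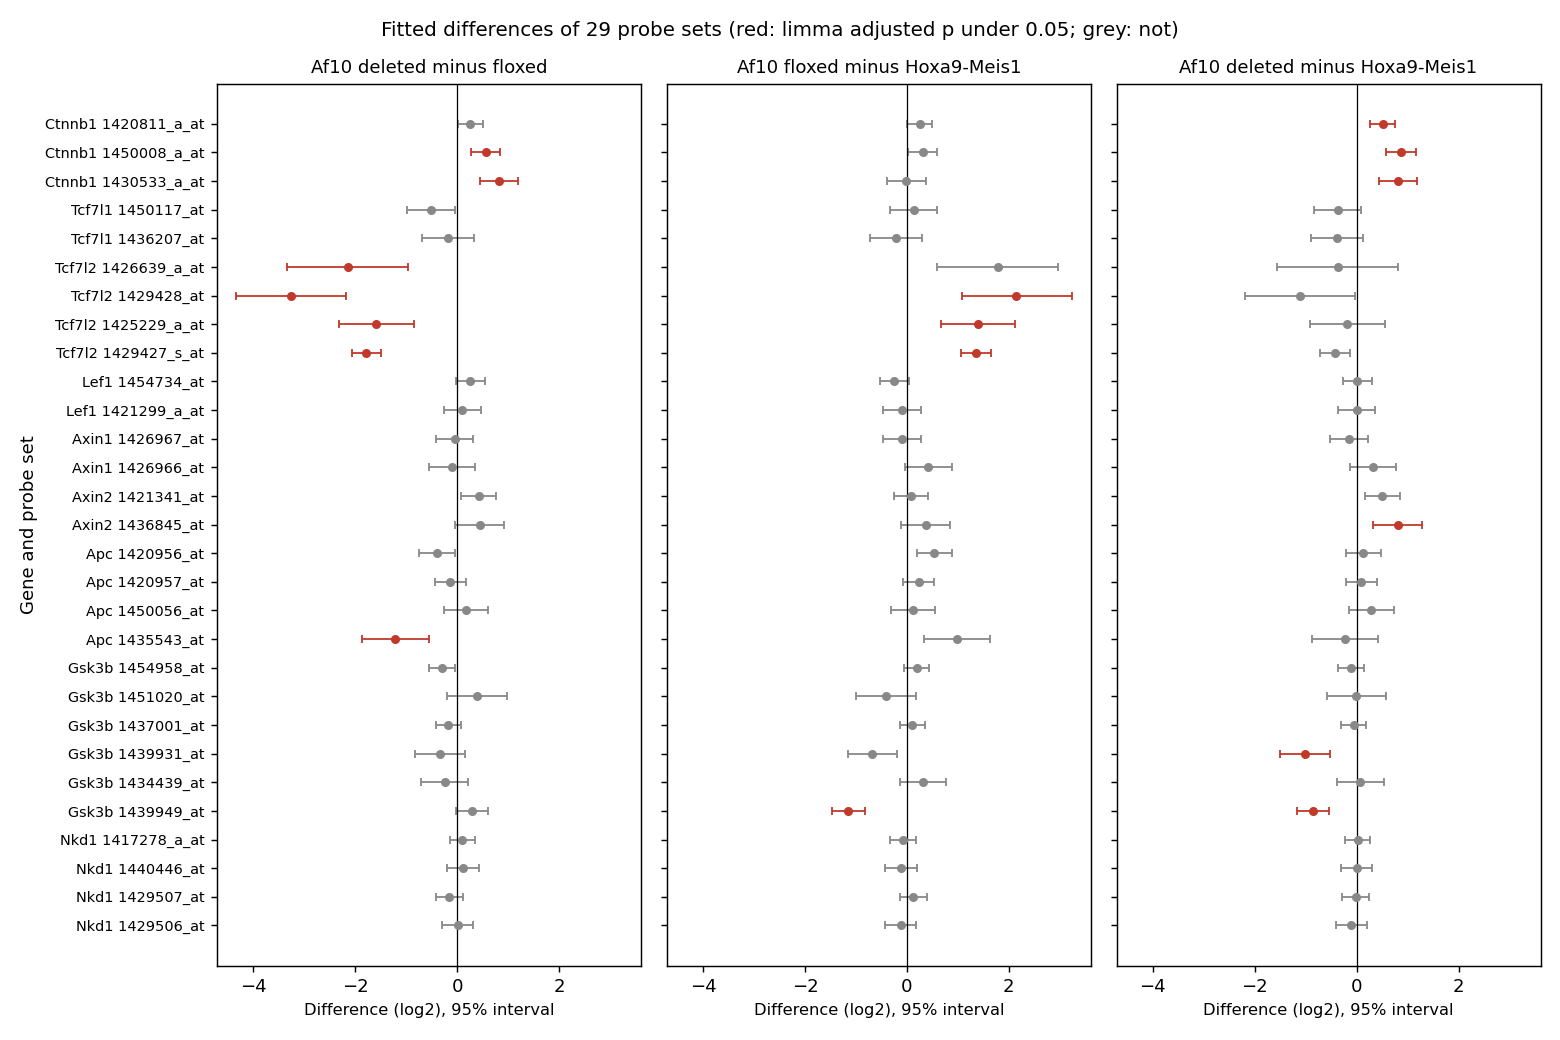
Fitted difference on the log2 scale with its 95% interval (horizontal axis) for each of the 29 probe sets (vertical axis) in the 3 comparisons; red points had a limma adjusted p under 0.05. All 4 Tcf7l2 probe sets lie left of 0 in deleted minus floxed, at -1.59 to -3.26, and all 3 of Ctnnb1 lie right of 0 in deleted minus Hoxa9-Meis1, at 0.51 to 0.87.

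Ctnnb1 encodes beta-catenin itself, the protein that carries the signal to the nucleus and that also links cadherins to actin at cell junctions. Its probe set 1430533_a_at read 10.63, 10.08 and 10.46 on deleted replicates 4, 5 and 6, 9.82, 9.41 and 9.46 on floxed replicates 4, 5 and 6, and 9.57, 9.60 and 9.54 on Hoxa9-Meis1 replicates 1, 2 and 3. All deleted arrays were above all others, while the floxed and Hoxa9-Meis1 ranges overlapped. The group means were 10.39 ± 0.28, 9.56 ± 0.22 and 9.57 ± 0.03. The deleted minus floxed difference was 0.83 (SE 0.16), a 1.77-fold rise (limma, adjusted p = 0.0214). Without deleted replicate 4 or 6 or floxed replicate 5 or 6 this difference was 0.71 to 0.79 and lost its call (limma, adjusted p 0.0563 to 0.0808). Neither this nor the next Ctnnb1 probe set was called when the fit held only the deleted and floxed arrays (limma, adjusted p = 0.0667 and 0.0581), or with deleted replicate 6 and floxed replicate 5 both left out (0.154 for each).

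Probe set 1450008_a_at of Ctnnb1 read 10.90, 10.70 and 10.90 in the deleted group, 10.32, 10.33 and 10.17 in the floxed group and 9.96, 9.78 and 10.14 in the Hoxa9-Meis1 group. The groups stood in that order with no overlap, at means of 10.84 ± 0.12, 10.27 ± 0.09 and 9.96 ± 0.18. The deleted group was above the floxed group by 0.56 (SE 0.13, 1.48-fold; limma, adjusted p = 0.0359). The difference was 0.51 to 0.63 when any 1 of the 6 arrays was left out, and none of those 6 fits called it (limma, adjusted p 0.0526 to 0.105). The floxed and Hoxa9-Meis1 groups differed by 0.31, which was not called (limma, adjusted p = 0.179).

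The third probe set, 1420811_a_at, read 12.89, 13.00 and 13.13 in the deleted group, 12.71, 12.79 and 12.73 in the floxed group and 12.40, 12.51 and 12.57 in the Hoxa9-Meis1 group. These values kept the same order with no overlap, at means of 13.00 ± 0.12, 12.74 ± 0.04 and 12.49 ± 0.08. The steps between neighbours, 0.26 and 0.25, were not called (limma, adjusted p = 0.209 and 0.197), and the interval of the first ran from 0.01 to 0.51. Deleted against Hoxa9-Meis1 leukemias, all 3 probe sets were called, with differences of 0.51 (1.43-fold), 0.87 (1.83-fold) and 0.82 (1.76-fold) for 1420811_a_at, 1450008_a_at and 1430533_a_at (limma, adjusted p = 0.0142, 0.00268 and 0.0115). The first of these lost its call without Hoxa9-Meis1 replicate 1, at 0.47 (limma, adjusted p = 0.0602), while the other pair was called without each array in turn. In whole samples such as these, fewer cells expressing a gene and less of its RNA per cell cannot be told apart.

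Promoters are shown for Ctnnb1 and Tcf7l2, the members with the most called probe sets, so that their base composition and any TCF/LEF motif can be read beside the values. Sequences are from RefSeq on GRCm38.p6, 250 bases upstream of an annotated start, 5' to 3' on the + strand, in lower case, with motif matches in capitals. Both annotated starts of Ctnnb1 are GC-rich, with 74.8% and 74.4% G or C over chr9:120933150-120933399 and chr9:120933328-120933577, windows that overlap. The TCF/LEF motif was searched as CTTTG followed by a pair of letters that are each A or T, on both strands, and neither window held a match.
Ctnnb1 first start: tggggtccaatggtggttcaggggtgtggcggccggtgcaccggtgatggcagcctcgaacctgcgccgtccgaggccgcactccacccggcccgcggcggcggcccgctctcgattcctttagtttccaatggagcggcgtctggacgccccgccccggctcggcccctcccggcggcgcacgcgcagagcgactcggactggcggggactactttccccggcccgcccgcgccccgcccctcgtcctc
Ctnnb1 second start: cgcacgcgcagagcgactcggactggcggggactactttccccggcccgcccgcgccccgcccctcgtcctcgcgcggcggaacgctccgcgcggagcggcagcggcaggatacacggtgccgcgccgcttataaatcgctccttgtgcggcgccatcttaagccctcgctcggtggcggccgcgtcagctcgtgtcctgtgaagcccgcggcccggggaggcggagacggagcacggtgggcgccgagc

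Tcf7l2, also called TCF4, is a DNA-binding partner of beta-catenin that turns on Wnt target genes when beta-catenin is bound and helps repress them when it is not. It gave the widest called differences among the measured members. Probe set 1429428_at read 5.58, 6.15 and 5.22 on deleted replicates 4, 5 and 6, 8.71, 9.21 and 8.80 on floxed replicates 4, 5 and 6, and 6.23, 8.0 and 6.03 on Hoxa9-Meis1 replicates 1, 2 and 3. All floxed arrays were high and all deleted arrays low, and Hoxa9-Meis1 replicate 2 stood between its own group and the floxed arrays. The means were 5.65 ± 0.47, 8.91 ± 0.27 and 6.76 ± 1.09. The deleted mean is below the level of the markers Hba-a1 and Blk, so the base of a fold is uncertain. The deleted group was lower than the floxed group by 3.26 (SE 0.48), a 9.56-fold fall with a 95% interval of -4.33 to -2.18 (limma, adjusted p = 0.00553). The call held without each of the 6 arrays in turn, with differences of -3.51 to -3.04 (limma, adjusted p 0.0127 to 0.0305). With deleted replicate 6 and floxed replicate 5 both left out it was -2.89 and not called (limma, adjusted p = 0.0729).

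The other 3 Tcf7l2 probe sets fell as well. Probe set 1426639_a_at read 7.18, 7.17 and 6.37 in the deleted group, 9.20, 8.83 and 9.13 in the floxed group, and 6.80, 8.69 and 6.34 in the Hoxa9-Meis1 group. Its deleted minus floxed difference was -2.15 (SE 0.52, 4.43-fold; limma, adjusted p = 0.0463), and it lost the call when any 1 of the 6 arrays was left out, at -2.28 to -1.88 (limma, adjusted p 0.0902 to 0.126), or with a pseudocount of 32, repeated quantile normalization or array weights (0.0617, 0.0586 and 0.0751). Again the deleted and floxed arrays did not overlap, and Hoxa9-Meis1 replicate 2 was the high array of its group. Probe set 1425229_a_at read 5.64, 5.77 and 5.44, then 7.26, 6.86 and 7.50, then 5.42, 6.63 and 5.35 in the same order of groups. The deleted group was lower by 1.59 (SE 0.32, 3.0-fold; limma, adjusted p = 0.0234), a call kept only without floxed replicate 5 and lost without each of the other 5 arrays, at -1.66 to -1.44 (limma, adjusted p 0.0541 to 0.0697).

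Probe set 1429427_s_at read 3.03, 3.26 and 3.09 in the deleted group, 4.88, 4.98 and 4.86 in the floxed group and 3.35, 3.71 and 3.58 in the Hoxa9-Meis1 group. Only the floxed arrays stood above the Y-linked background range, so a fold has no firm base here. The difference of -1.78 was called in all 14 alternative analyses in which it was tested, and its size fell to -0.62 with a pseudocount of 32 (limma, adjusted p = 0.000148 with a pseudocount of 1). Its suffix marks probes that may match transcripts of more than 1 gene.

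Against Hoxa9-Meis1 leukemias, Tcf7l2 was higher in the floxed group. On 1429428_at the difference was 2.15 (4.44-fold; limma, adjusted p = 0.0254), and without Hoxa9-Meis1 replicate 2 it was 2.78 (limma, adjusted p = 0.00202). Leaving out any other array of the 2 groups ended that call, at 1.79 to 2.25 (limma, adjusted p 0.0524 to 0.0999). On 1425229_a_at the floxed group was higher by 1.40 (2.64-fold; limma, adjusted p = 0.0298), a call lost without floxed replicate 4 or 6 or Hoxa9-Meis1 replicate 1 or 3, at 1.18 to 1.37 (limma, adjusted p 0.0729 to 0.114). With the floxed and Hoxa9-Meis1 arrays alone in the fit neither of these was called (limma, adjusted p = 0.054 and 0.0706). On 1429427_s_at it was higher by 1.36, called without each array in turn (limma, adjusted p = 0.000516). On 1426639_a_at the difference of 1.78 was not called (limma, adjusted p = 0.0701), and it was 2.48 and called without Hoxa9-Meis1 replicate 2 (limma, adjusted p = 0.00312).

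Between deleted and Hoxa9-Meis1 leukemias no Tcf7l2 probe set was called by limma, and 2 of the 4 had an unadjusted p under 0.05. The differences were -1.11 (interval -2.18 to -0.03), -0.37, -0.18 and -0.42 for 1429428_at, 1426639_a_at, 1425229_a_at and 1429427_s_at (limma, adjusted p = 0.166, 0.712, 0.773 and 0.0555). The wide interval of the first leaves room for a difference of several-fold. The order of the groups by mean was floxed, then Hoxa9-Meis1, then deleted on all 4 probe sets, and the last pair was not separated by the test as fitted. On 1429427_s_at that pair did not overlap, and its difference was called with a mean-variance trend, with array weights and without Hoxa9-Meis1 replicate 1 (limma, adjusted p = 0.0316, 0.0489 and 0.0483).

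**Figure D2:**
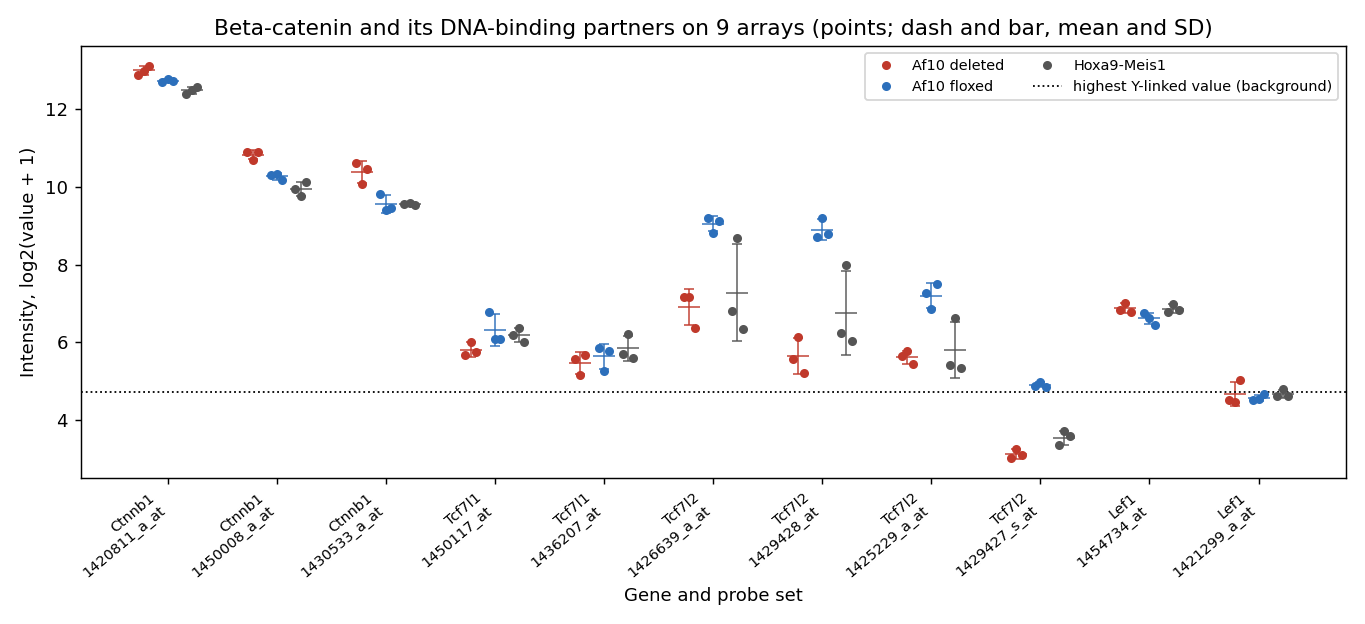
Intensity as log2(value + 1) (vertical axis) of each probe set of Ctnnb1, Tcf7l1, Tcf7l2 and Lef1 on the 9 arrays (points, coloured by group; dash and bar, mean and SD over 3 arrays). The dotted line marks the highest Y-linked value, 4.71, and levels are to be compared within a probe set only; the floxed points stand above the deleted points on each Tcf7l2 probe set, and 1 Hoxa9-Meis1 array, replicate 2, lies high on 3 of them.

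RefSeq lists a pair of starts for Tcf7l2 among these promoters, at chr19:55741560-55741809 and chr19:55895071-55895320, both on the + strand. The upstream one is GC-rich, at 72.8% G or C, and held no TCF/LEF motif. The downstream one is 40.8% G or C and held CTTTGTT, which begins 14 bases before the annotated start.
Tcf7l2 first start: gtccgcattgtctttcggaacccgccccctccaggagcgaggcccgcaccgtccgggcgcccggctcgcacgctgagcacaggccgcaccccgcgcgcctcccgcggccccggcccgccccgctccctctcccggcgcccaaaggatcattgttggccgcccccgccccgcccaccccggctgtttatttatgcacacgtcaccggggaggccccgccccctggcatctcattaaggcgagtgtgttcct
Tcf7l2 second start: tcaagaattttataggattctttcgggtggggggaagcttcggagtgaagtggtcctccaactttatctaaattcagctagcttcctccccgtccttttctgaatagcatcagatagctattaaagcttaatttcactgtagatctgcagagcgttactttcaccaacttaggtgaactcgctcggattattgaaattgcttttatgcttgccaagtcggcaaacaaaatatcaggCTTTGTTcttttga

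RefSeq promoters were found for 8 of the 10 genes, 14 windows in all, and Axin1 and Apc had no entry. A motif match was found in 2 of the 14, the other being the most downstream listed start of Lef1, where TACAAAG begins 147 bases before the start, and in 14.8% of all 32851 promoters of that length. A match is a string of letters and not evidence of binding.

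Tcf7l1 and Lef1 are the other measured DNA-binding partners, the first acting mostly as a repressor of Wnt targets and the second mostly as an activator. None of their 4 probe sets was called in any comparison by limma, and only 1, Tcf7l1 1450117_at in deleted against floxed, had an unadjusted p under 0.05. That probe set read 5.67, 6.02 and 5.76 in the deleted group, 6.79, 6.10 and 6.08 in the floxed group and 6.18, 6.37 and 6.01 in the Hoxa9-Meis1 group. The deleted arrays were just below the floxed ones without overlap, and the difference of -0.51 had an interval of -0.98 to -0.05 (limma, adjusted p = 0.192). Tcf7l1 1436207_at had overlapping groups in all comparisons, with means of 5.47 ± 0.28, 5.64 ± 0.32 and 5.84 ± 0.33.

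Lef1 1454734_at read 6.83, 7.02 and 6.78 in the deleted group, 6.76, 6.63 and 6.46 in the floxed group and 6.78, 6.99 and 6.83 in the Hoxa9-Meis1 group. The floxed arrays were lowest, by 0.26 against the deleted and 0.25 against the Hoxa9-Meis1 group (limma, adjusted p = 0.278 and 0.281). The deleted and Hoxa9-Meis1 groups differed by 0.01, with an interval of -0.27 to 0.30. The second Lef1 probe set, 1421299_a_at, had means of 4.68, 4.57 and 4.67, within the background range in all groups.

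The destruction complex gave no shared direction. Axin1, its scaffold, had overlapping groups in every comparison, with means of 9.86 ± 0.10, 9.91 ± 0.33 and 10.01 ± 0.06 on 1426967_at and 9.49 ± 0.23, 9.58 ± 0.24 and 9.16 ± 0.32 on 1426966_at. No Axin1 difference was called by limma, none had an unadjusted p under 0.05, and the intervals of deleted minus floxed ran from -0.42 to 0.32 and from -0.55 to 0.36.

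Apc, the tumour suppressor that presents beta-catenin to the kinases, was called on 1 of its 4 probe sets, in deleted against floxed. Probe set 1435543_at read 7.93, 7.64 and 7.13 in the deleted group, 8.37, 9.41 and 8.56 in the floxed group and 7.59, 7.85 and 7.94 in the Hoxa9-Meis1 group. The floxed arrays were above all others. The difference of -1.21 (SE 0.29, 2.32-fold; limma, adjusted p = 0.0418) was called without floxed replicate 4, and lost without each of the other 5 arrays, at -1.39 to -0.90 (limma, adjusted p 0.0545 to 0.11). It was also lost with a pseudocount of 32, with the deleted and floxed arrays alone and with array weights (limma, adjusted p = 0.0603, 0.0978 and 0.051), and was -0.68 with deleted replicate 6 and floxed replicate 5 both left out (limma, adjusted p = 0.114). Floxed minus Hoxa9-Meis1 was 0.98 and not called (limma, adjusted p = 0.0685), though it was with array weights (0.0415).

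Apc 1420956_at read 9.61, 9.59 and 9.55 in the deleted group, 9.82, 10.16 and 9.97 in the floxed group and 9.28, 9.32 and 9.76 in the Hoxa9-Meis1 group. The floxed arrays were again the highest and did not overlap the others, with differences of -0.40 and 0.53 that were not called (limma, adjusted p = 0.17 and 0.0647). The second was called with array weights and without Hoxa9-Meis1 replicate 3 (limma, adjusted p = 0.026 and 0.0197). The remaining pair, 1420957_at and 1450056_at, had overlapping groups in all comparisons, and their deleted minus floxed differences were -0.13 and 0.17. Without deleted replicate 5, 1450056_at was called in deleted against Hoxa9-Meis1, at 0.53 against 0.29 with all arrays (limma, adjusted p = 0.0417). The 4 probe sets of Apc thus differ among themselves in size and sign.

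Gsk3b, the kinase that marks beta-catenin for destruction, had no called probe set in deleted against floxed, where 1 of 6 had an unadjusted p under 0.05. That one, 1454958_at, read 11.56, 11.65 and 11.42 in the deleted group and 11.74, 11.92 and 11.86 in the floxed group, a difference of -0.30 without overlap (limma, adjusted p = 0.166). A pair of its probe sets separated the Hoxa9-Meis1 leukemias from the others. Probe set 1439949_at read 7.33, 7.26 and 7.19 in the deleted group, 6.95, 7.01 and 6.94 in the floxed group and 8.41, 7.95 and 7.97 in the Hoxa9-Meis1 group. The Hoxa9-Meis1 arrays were the highest, and the floxed group was lower than them by 1.15 (SE 0.14, 2.21-fold) and the deleted group by 0.85 (1.80-fold; limma, adjusted p = 0.00188 and 0.00439). Both calls held without each array in turn.

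Gsk3b 1439931_at read 6.74, 7.32 and 7.44 in the deleted group, 7.19, 7.83 and 7.48 in the floxed group and 8.20, 8.07 and 8.27 in the Hoxa9-Meis1 group. The Hoxa9-Meis1 arrays were again above all others. The deleted group was lower than them by 1.02 (2.02-fold; limma, adjusted p = 0.0139), a call lost without Hoxa9-Meis1 replicate 1 at -1.0 (limma, adjusted p = 0.0512), and the floxed group was 0.68 below them, which was called with array weights alone (limma, adjusted p = 0.0877, and 0.0409 with array weights). The other 4 Gsk3b probe sets were not called in any comparison, and their differences from the Hoxa9-Meis1 group lay between -0.40 and 0.31, with both signs present. The probe sets of Gsk3b therefore give no single direction for the gene.

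Axin2, a close relative of Axin1 whose transcription is a common readout of Wnt signalling, was highest in the deleted group. Probe set 1436845_at read 7.41, 6.51 and 6.73 in the deleted group, 6.61, 6.30 and 6.43 in the floxed group and 6.04, 6.12 and 6.08 in the Hoxa9-Meis1 group. The deleted arrays were above all Hoxa9-Meis1 arrays and overlapped the floxed ones, and deleted replicate 4 was the highest array. The deleted group was above the Hoxa9-Meis1 group by 0.81 (SE 0.21, 1.75-fold; limma, adjusted p = 0.0345). Without deleted replicate 6 or any 1 of the 3 Hoxa9-Meis1 arrays the difference was 0.79 to 0.88 and not called (limma, adjusted p 0.0527 to 0.105), and without deleted replicate 4 it was 0.54 and called. A pseudocount of 32 or a fit of these groups alone also ended the call (limma, adjusted p = 0.0518 and 0.0629). The deleted minus floxed difference was 0.44 (interval -0.04 to 0.92; limma, adjusted p = 0.276).

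Axin2 1421341_at read 7.07, 6.70 and 6.60 in the deleted group, 6.41, 6.25 and 6.43 in the floxed group and 6.43, 6.32 and 6.10 in the Hoxa9-Meis1 group. The deleted arrays lay above all others without overlap. The differences of 0.43 from the floxed group (interval 0.08 to 0.77) and 0.50 from the Hoxa9-Meis1 group were not called (limma, adjusted p = 0.142 and 0.0546), though the second was with quantile normalization or array weights (0.0348 and 0.0319). Nkd1, which binds Dishevelled and damps the signal, showed no call on its 4 probe sets in any comparison by limma, and none had an unadjusted p under 0.05. Its groups overlapped throughout and its differences lay between -0.15 and 0.13.

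**Figure D3:**
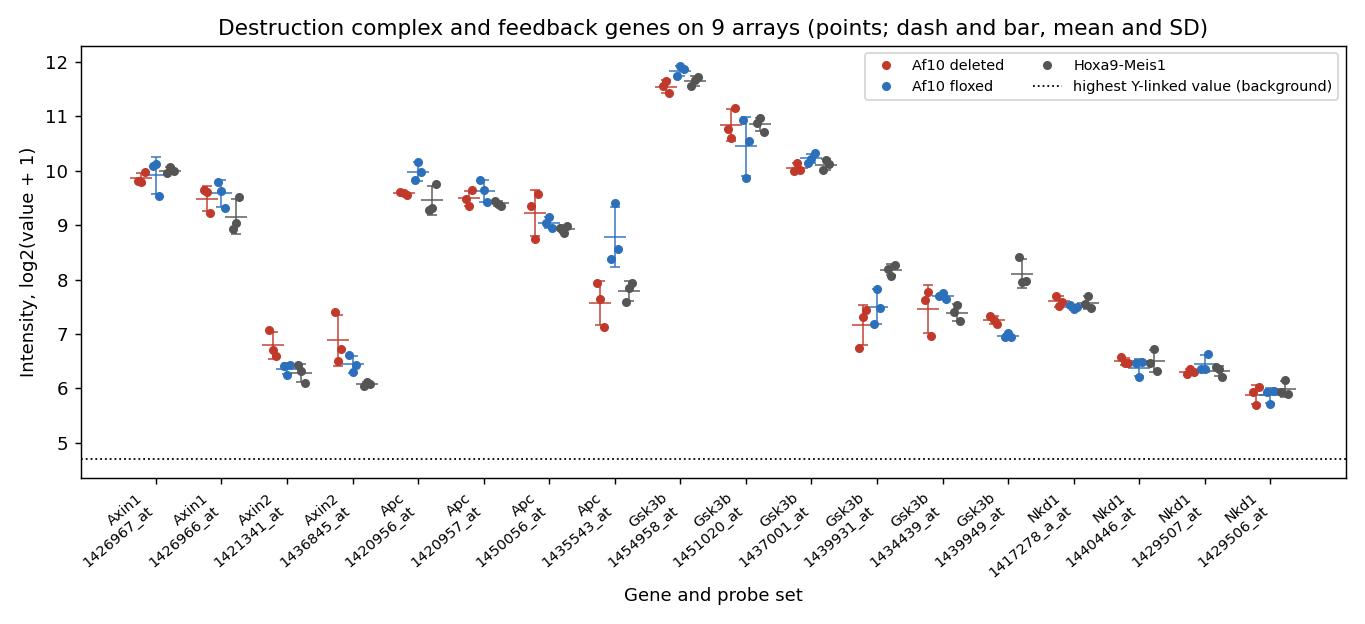
Intensity as log2(value + 1) (vertical axis) of each probe set of Axin1, Axin2, Apc, Gsk3b and Nkd1 on the 9 arrays (points, coloured by group; dash and bar, mean and SD over 3 arrays; dotted line, highest Y-linked value, 4.71). The floxed points are highest on Apc 1435543_at, the Hoxa9-Meis1 points are highest on Gsk3b 1439931_at and 1439949_at, and the groups overlap on all 4 Nkd1 probe sets.

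The wider pathway was described through a list of 114 other genes, of which 113 were measured, each by its brightest probe set. In deleted against floxed leukemias 2 rose and 5 fell, which is 6.19% called against 6.41% of all genes (2.94% rose, 3.47% fell), and the median difference was 0.06 for the list and for all genes. In floxed against Hoxa9-Meis1 leukemias 4 were higher and 5 lower, 7.96% against 8.66% of all genes (5.43% higher, 3.23% lower). In deleted against Hoxa9-Meis1 leukemias 8 were higher and 7 lower, 13.3% against 15.0% of all genes (8.92% higher, 6.04% lower). These shares are near the background in all 3 comparisons. In the same order, 29, 21 and 22 of the 113 had an unadjusted limma p under 0.05. Over all 18193 genes it was 3926, 4266 and 5118.

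Among 19 Wnt ligands, Wnt10b was the single gene called. It read 6.98, 6.27 and 6.93 in the deleted group, 8.26, 8.19 and 7.89 in the floxed group and 6.98, 6.50 and 6.63 in the Hoxa9-Meis1 group. The floxed arrays were high and the other groups overlapped each other. Wnt10b fell by 1.39 with deletion and was higher by 1.41 in floxed than in Hoxa9-Meis1 leukemias (limma, adjusted p = 0.00751 and 0.0055). It lies on chromosome 15, where the median gene of floxed replicate 4 was shifted by 0.10. Without that array both calls held, at -1.31 and 1.34 (limma, adjusted p = 0.0259 and 0.0201). With deleted replicate 6 and floxed replicate 5 both left out the difference was -1.45 and not called (limma, adjusted p = 0.054). Neither of the 2 ligand release genes was called or had an unadjusted p under 0.05 in any comparison.

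No receptor or co-receptor of 15 was called by limma in deleted against floxed, where 4 had an unadjusted p under 0.05. Fzd5, a Frizzled receptor, was lower than in Hoxa9-Meis1 leukemias by 0.82 in the floxed and 0.93 in the deleted group (limma, adjusted p = 0.0254 and 0.0101). The first of these was called without floxed replicate 6, and lost without each of the other 5 arrays (limma, adjusted p up to 0.0932). On the dimmer Fzd5 probe set they were -0.67 and -0.24, neither called (limma, adjusted p = 0.0576 and 0.468). Fzd7 was higher by 1.19 in the deleted than in the Hoxa9-Meis1 group (limma, adjusted p = 0.0233), a call lost without deleted replicate 4 or 6 or Hoxa9-Meis1 replicate 1 or 2 (limma, adjusted p up to 0.0817). The dimmer Fzd7 probe set differed by -0.03 there and was not called (limma, adjusted p = 0.9). Fzd5 and Fzd7 lie on chromosome 1, where the median gene of deleted replicate 6 was shifted by 0.13. Without that array Fzd5 stood at -0.99 and Fzd7 at 1.21, the latter not called (limma, adjusted p = 0.0204 and 0.0533).

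In the R-spondin branch, whose receptors keep Frizzleds at the surface, Lgr4 gave the widest difference of the listed genes. It read 9.94, 9.94 and 10.23 in the deleted group, 9.29, 9.27 and 8.85 in the floxed group and 5.21, 4.68 and 5.54 in the Hoxa9-Meis1 group. The groups did not overlap, and the Hoxa9-Meis1 arrays were close to background. Lgr4 was higher than in that group by 3.99 in floxed and 4.89 in deleted leukemias (limma, adjusted p = 4.06e-05 and 8.8e-06). On its dimmer probe set these were 1.56, not called, and 2.45, called (limma, adjusted p = 0.0516 and 0.00535). Lgr4 rose by 0.90 with deletion (limma, adjusted p = 0.0482), and leaving out any 1 of the 6 arrays ended that call (limma, adjusted p 0.0696 to 0.129). The dimmer probe set gave 0.89 there and was not called (limma, adjusted p = 0.259). Lgr6, a related receptor also on chromosome 1, was higher by 1.47 in deleted than in Hoxa9-Meis1 leukemias (limma, adjusted p = 0.0187), and by 1.13 without deleted replicate 6 (limma, adjusted p = 0.0394). That call was lost without Hoxa9-Meis1 replicate 1 or 3 (limma, adjusted p up to 0.0645). With deletion Lgr6 was not called on this probe set, at 1.01 (limma, adjusted p = 0.118). Its dimmer probe set was called and rose by 1.48 (limma, adjusted p = 0.0231), which the count by brightest probe set leaves out. By brightest probe set, no other gene of the 9 in this branch was called in any comparison.

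Of 13 genes on the antagonist list, Kremen1, a Dickkopf receptor, and Frzb, a secreted Frizzled-related protein, were called. Kremen1 read 7.76, 8.25 and 7.94 in the deleted group, 8.89, 8.57 and 8.88 in the floxed group and 9.58, 9.58 and 9.64 in the Hoxa9-Meis1 group. The groups stood apart in that order, with differences of -0.80, -0.82 and -1.61 for deleted minus floxed, floxed minus Hoxa9-Meis1 and deleted minus Hoxa9-Meis1 (limma, adjusted p = 0.0171, 0.0122 and 0.000283). The first was lost without deleted replicate 4 or 6, at -0.68 and -0.77 (limma, adjusted p = 0.0561 and 0.0502). Frzb read 6.02, 5.86 and 6.16, then 5.76, 6.15 and 6.36, then 9.0, 9.42 and 7.89. It was high in Hoxa9-Meis1 leukemias alone, with floxed 2.68 and deleted 2.75 lower (limma, adjusted p = 0.00233 and 0.00115).

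Among 7 cytoplasmic relay genes, Dvl1, a Dishevelled protein, was lower by 0.61 in floxed than in Hoxa9-Meis1 leukemias (limma, adjusted p = 0.0194). Its dimmer probe set differed by -0.05 there and was not called (limma, adjusted p = 0.925). None of the 7 was called by limma in deleted against floxed, with 0 at an unadjusted p under 0.05. Of the 15 other destruction complex genes none was called by limma in deleted against floxed, with 5 at an unadjusted p under 0.05, or in floxed against Hoxa9-Meis1, with 3. Against Hoxa9-Meis1 leukemias 1 was higher and 1 lower in the deleted group.

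Of 19 nuclear partners and repressors, Jup was the one called in deleted against floxed. Jup encodes plakoglobin, the nearest relative of beta-catenin, which joins cells at desmosomes and can also bind TCF proteins. It read 6.69, 6.42 and 7.40 in the deleted group, 8.49, 8.14 and 8.93 in the floxed group and 8.24, 8.13 and 8.49 in the Hoxa9-Meis1 group. The deleted arrays were below all others. Jup fell by 1.68 against the floxed group and was lower by 1.45 than in the Hoxa9-Meis1 group (limma, adjusted p = 0.00895 and 0.00826), and both calls held without each array in turn.

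Of 14 genes listed as Wnt targets alone, 1 rose and 2 fell with deletion, which is 21.4% called against 6.41% of all genes. Dkk1, Lgr5 and Notum are targets too but were counted under other roles. None of them was called (limma, adjusted p = 0.856, 0.608 and 0.843), so the share over all listed targets is lower. The members Axin2 and Nkd1 are not in this count either. Jag1, another listed target, was not called on its brightest probe set, at 0.92 (limma, adjusted p = 0.052). A dimmer probe set of Jag1 was called and rose by 1.39 (limma, adjusted p = 0.00819), which the count by brightest probe set leaves out. Mycn, a Myc family factor, read 13.40, 13.22 and 13.21 in the deleted group, 14.35, 14.31 and 14.32 in the floxed group and 14.41, 14.40 and 14.31 in the Hoxa9-Meis1 group. The deleted arrays were low and the other groups overlapped, and Mycn fell by 1.05 (limma, adjusted p = 0.000777), on this one of its 3 probe sets. Ccnd1, which encodes cyclin D1, fell by 1.27 (limma, adjusted p = 0.0428), a call kept without floxed replicate 6 and lost without each of the other 5 arrays (limma, adjusted p up to 0.15). That was 1 of its 3 probe sets, and the others, at -0.97 and -0.37, were not called (limma, adjusted p = 0.163 and 0.309). Ascl2, a transcription factor of intestinal stem cells, rose by 0.71 (limma, adjusted p = 0.0109), with 2 of its 3 probe sets called. With deleted replicate 6 and floxed replicate 5 both left out, Ascl2 stood at 0.61 and was not called (limma, adjusted p = 0.0851), and Lgr4, Kremen1 and Ccnd1 were not called either (limma, adjusted p = 0.204, 0.0574 and 0.271).

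Against Hoxa9-Meis1 leukemias, Ccnd1 was higher by 1.65 and Birc5, which encodes survivin, by 1.13 in the floxed group (limma, adjusted p = 0.0122 and 0.00265). Myc was lower there by 1.20 (limma, adjusted p = 0.0347), a call lost without floxed replicate 5 or 6 or Hoxa9-Meis1 replicate 1 or 2 (limma, adjusted p up to 0.13). In the deleted group Mycn was lower by 1.10 and Ascl2 higher by 1.06 (limma, adjusted p = 0.000298 and 0.000743). The targets thus moved in both directions in each comparison.

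**Figure D4:**
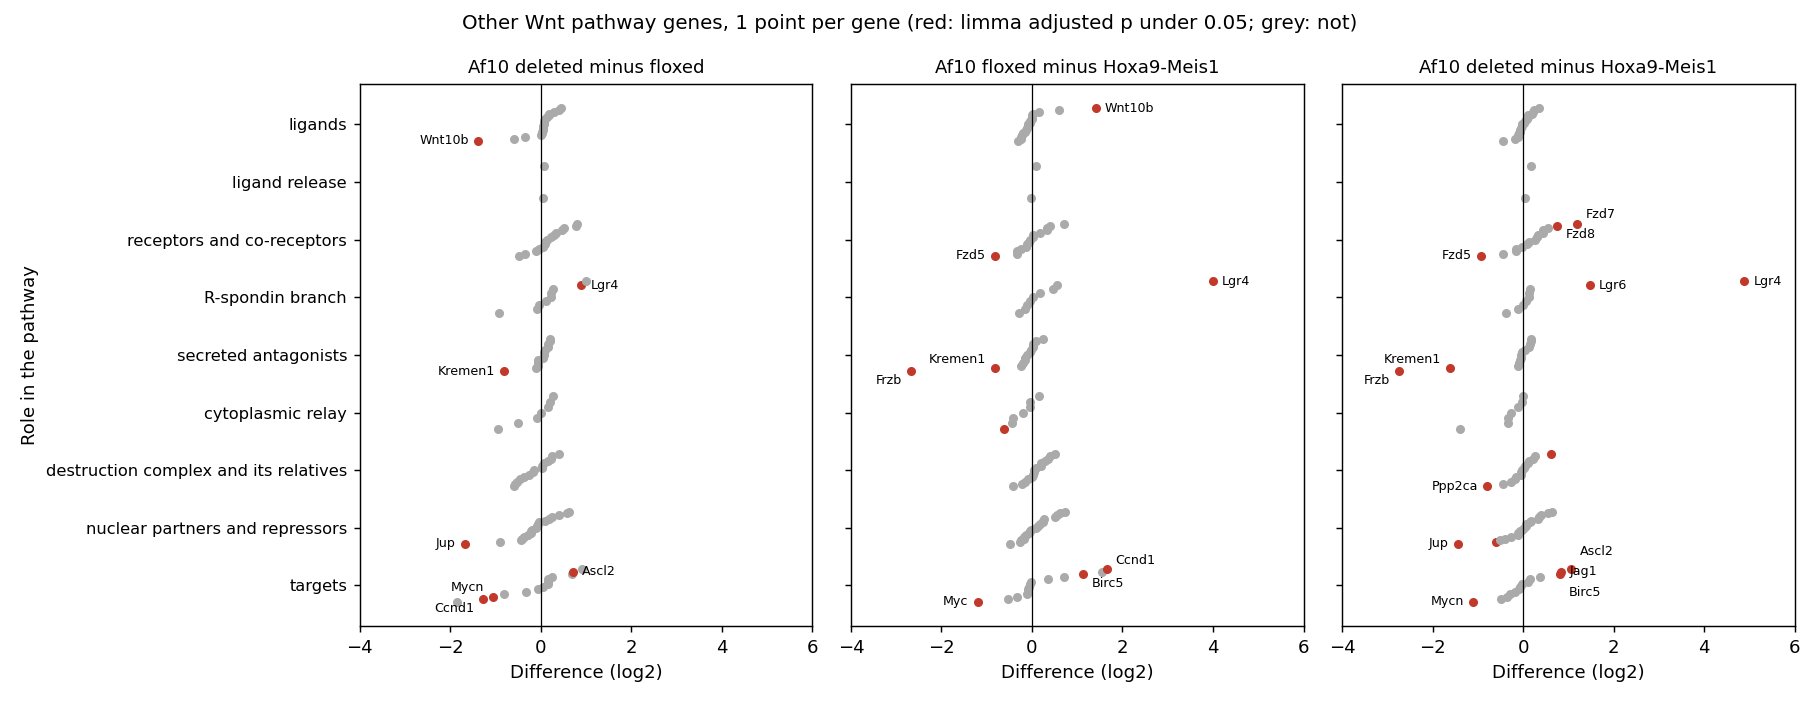
Difference on the log2 scale (horizontal axis) of each of the 113 other pathway genes, by role (vertical axis), in the 3 comparisons; red points had a limma adjusted p under 0.05, and those with a difference of at least 0.7 are named. Most points lie near 0, Wnt10b, Jup, Ccnd1 and Mycn are the genes furthest to the left among those called in deleted minus floxed, and Lgr4 lies furthest to the right against Hoxa9-Meis1.

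Over the 9 arrays, the genes with the pattern most like Tcf7l2 1429428_at were Col6a3, Heg1, Zfp105, Mef2c and Zfp799. Likeness was measured as the root mean square difference between centred log2 values, which was 0.57, 0.62, 0.64, 0.64 and 0.66 for these genes, against 0.54, 0.77 and 0.78 for the other Tcf7l2 probe sets. Col6a3, a collagen chain, read 4.78, 4.57 and 4.33 in the deleted group, 7.15, 7.69 and 7.01 in the floxed group and 4.62, 5.32 and 5.31 in the Hoxa9-Meis1 group. Mef2c, a transcription factor known in MLL-rearranged leukemia, read 8.12, 8.91 and 8.37, then 12.43, 12.59 and 12.38, then 9.38, 10.28 and 10.57. In all 5 the floxed arrays were the highest, which is what the measure of likeness selects for, and no test was applied.

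**Figure D5:**
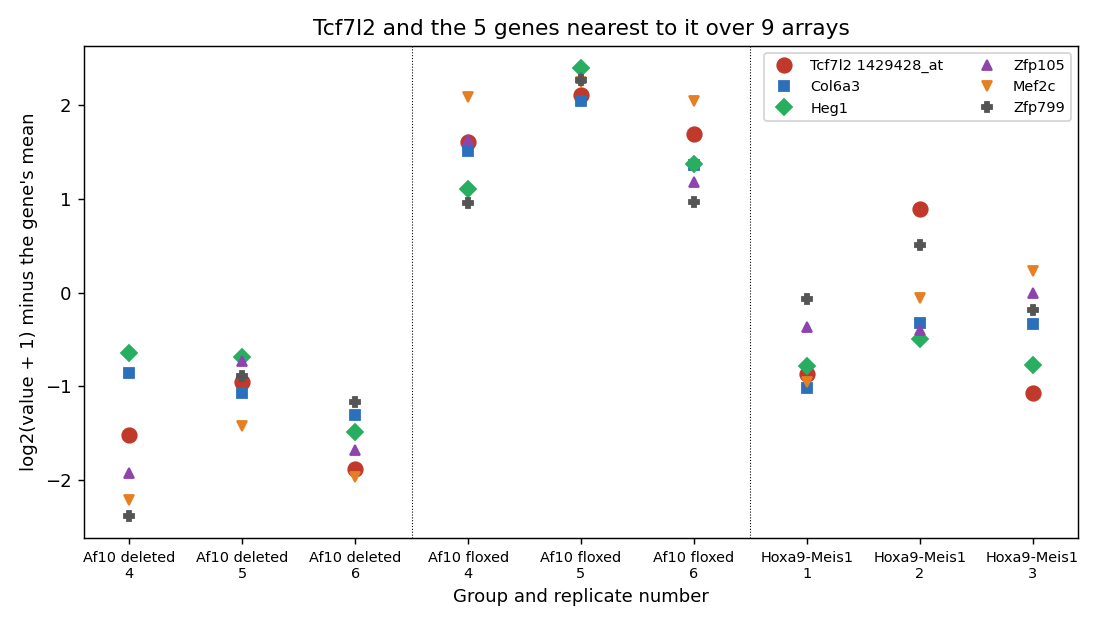
Centred log2 level (vertical axis, each gene minus its mean over 9 arrays) of Tcf7l2 1429428_at and the 5 genes nearest to it on each array (horizontal axis, by group and replicate). All 6 are above their mean on the 3 floxed arrays and below it on the 3 deleted arrays, and on Hoxa9-Meis1 replicate 2 Tcf7l2 stands higher than the other 5.

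Markers of other cell types were read beside these results. The summed intensity of the 9 measured B cell markers of 10 listed was 1781 to 1948 in the deleted group, 2557 to 3771 in the floxed group and 1429 to 2749 in the Hoxa9-Meis1 group. Floxed arrays were high, as for Tcf7l2, and Hoxa9-Meis1 replicate 2 was the highest of its group. Without Vpreb1, part of the surrogate light chain, the sums were 1556 to 1661, 1565 to 1821 and 1333 to 1497, with the deleted and floxed ranges overlapping. The 7 of 9 erythroid markers measured summed to 675 to 768, 791 to 925 and 642 to 656, and the 14 of 16 T and NK cell markers to 2815 to 5022, 4802 to 6723 and 4083 to 6157. In both sums, much of the gap between the deleted and floxed groups came from a single gene. Without Rhd the erythroid sums were 529 to 619, 522 to 577 and 497 to 520, and without Nkg7 the T and NK sums were 2198 to 2255, 1979 to 3078 and 1924 to 2449, with the deleted and floxed ranges overlapping in both. The genes left out of these sums were chosen after their values were seen.

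The 10 of 11 monocyte and macrophage markers measured summed to 4902 to 10295, 6738 to 11700 and 10246 to 16615, and the 10 stromal and endothelial markers to 793 to 1042, 712 to 865 and 757 to 784, with 1 of these, Tek, in the background range on all arrays. The 10 myeloid leukemia markers summed to 85251 to 94256 in the deleted group, 62245 to 82305 in the floxed group and 85076 to 91053 in the Hoxa9-Meis1 group. The floxed arrays were lowest in this sum and highest for Tcf7l2. With deletion 3 of 14 T and NK markers rose by limma's adjusted p (Cd3e, Klrd1 and Gzma), which is 21.4% against 6.41% of all genes. Klrd1 and Gzma had floxed means in the background range, 4.18 and 4.49. The widest difference of that list was that of Cd28, -1.87, which was not called (limma, adjusted p = 0.0995). By the same measure 1 of 9 B cell markers fell (Cd79b) and 1 of 7 erythroid markers fell (Rhd). A rise was called for 1 of 10 monocyte markers (C1qc) and 1 of 10 myeloid markers (Fcgr3). Deleted against Hoxa9-Meis1, 4 of 14 T and NK markers were higher and 1 lower, 35.7% called against 15.0% of all genes. Also called there were 2 of 9 B cell, 1 of 7 erythroid and 1 of 10 stromal markers. The same held for 2 of 10 monocyte and 1 of 10 myeloid markers. Floxed against Hoxa9-Meis1, no T and NK or stromal marker was called, against 8.66% of all genes. Calls were 1 of 9 B cell, 1 of 7 erythroid, 1 of 10 monocyte (Vcam1, -2.2) and 1 of 10 myeloid (Cebpa, -1.13). The part of other cell types in the changes of Tcf7l2 and Ctnnb1 was not tested. On the chromosomes of the measured members the median gene was shifted by no more than -0.07 or 0.05 on any array, the lowest being chromosome 19, which holds Tcf7l2, on floxed replicate 5.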

How the data were processed

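Total RNA (100 ng, per the labels) was hybridised to Affymetrix arrays. The authors deposited RMA-normalized intensity values, per the submitters' processing notes; they span 4.6 to 32082, which is a linear scale, and were analysed as log2(value + 1). Of 45101 probe sets, 64 controls were left out. Gene names came from GEO's platform annotation (34945 probe sets with 1 symbol, 932 with several, 9160 not listed). A group-means model over all 9 arrays was fitted with limma 3.58.1 in R 4.3.3 (lmFit, eBayes, two-sided), with Benjamini-Hochberg adjustment over 45037 probe sets in each comparison; the script was checked on simulated data. For each listed gene the brightest of its probe sets, by mean over the 9 arrays, stood for it, with p adjusted over all probe sets. Named in the text were all member probe sets, up to 8 called pathway genes per comparison by size of difference, and the 5 genes nearest to the called member with the widest span of group means; further genes were named after their values were seen. The members and lists were chosen with earlier results of these data known. Alternatives varied the pseudocount, normalization, filter, variance model, array weights, samples in the fit and unit of the fit. No array batch is given in the sources used here, and 3 arrays a group limit the precision. The smallest mean absolute difference between 2 arrays was 0.22 (log2), so no array was a copy of another. Identical values on at least 2 arrays occurred in 32.4% of probe sets, 7 of the 29 among them.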

Additional observations from a re-analysis of the deposited data

How the results depend on the processing

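For the 29 probe sets in deleted against floxed, 7 were called; the fit of those groups alone called 4, the fit over genes (9 probe sets, 1 per gene) 1, leaving out both deleted replicate 6 and floxed replicate 5 gave 1, and fits without 1 array called 2 to 4. In floxed against Hoxa9-Meis1, 4 were called, against 2 with those groups alone, 7 with array weights, 0 in the fit over genes (of 9), 2 without that pair of arrays and 2 to 5 without 1 array. In deleted against Hoxa9-Meis1, 6 were called, against 1 in the fit over genes and 4 to 7 without 1 array. The 113 pathway genes gave 7, 9 and 15 calls in the 3 comparisons; without 1 array they gave 4 to 6, 6 to 10 and 11 to 14, and without the pair of arrays 3 in deleted against floxed. Over all probe sets, deleted against floxed gave 2786 calls, against 1737 with those groups alone, 1061 without the pair, 1246 in the fit over genes and 1346 to 2725 without 1 array; floxed against Hoxa9-Meis1 gave 4064, against 2671, 1618 and 1724 to 4125 for the last 3 of these; deleted against Hoxa9-Meis1 gave 6777, against 2822 in the fit over genes and 3869 to 6272 without 1 array. Same-numbered deleted and floxed arrays deviated together only weakly (correlations 0.05, 0.05 and 0.03). With 3 arrays a group this cannot decide whether the numbers pair them. With a replicate block, 4 of the 29 probe sets, 4 pathway genes and 1180 probe sets in all were called in deleted against floxed. The calls of Ctnnb1 1450008_a_at, Ctnnb1 1430533_a_at and Apc 1435543_at were lost in that fit (limma, adjusted p = 0.124, 0.0572 and 0.105). Of 17 called differences of the 29 probe sets, 6 were called under every alternative tried, and no called difference changed sign. Of the 70 not called, 19 changed sign under at least 1 alternative and 7 were called under at least 1. Except where an alternative tests fewer probe sets or arrays, the cause was not tested. Low signal limits Tcf7l2 1429427_s_at and Lef1 1421299_a_at, which lay in the background range in 2 and 3 groups. It may limit others too. The deleted means of Tcf7l2 1429428_at and 1425229_a_at, 5.65 and 5.62, were below those of Hba-a1 and Blk, and Axin2 and Tcf7l1 read near those levels. The background of each of these probe sets was not measured.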
